A study of Mus musculus with 40 samples.

Results

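Ms4a1, Cd22, Ly6d, Fcmr and Mzb1 are genes of mature B cells and antibody-secreting plasma cells, and their RNA was followed in mouse bone marrow after a single dose of the alkylating drug cyclophosphamide. They were chosen by gene symbol, with earlier results of these data known. On the array, 5 of the 13443 probes were annotated to them, 1 probe for each gene, among 9616 genes with a symbol. The 4 groups held 5 DBA/2 mice each (an inbred laboratory strain): untreated controls, and mice whose marrow was harvested 1, 2 or 5 days after 83 mg/kg cyclophosphamide given into the peritoneum. The study's design text says that the mice of a group were harvested independently, and the labels give neither the age of the mice nor any genetic modification. The Cy5-labelled RNA of a mouse was hybridised on 2 arrays against a common Cy3 reference pool, so every value is a ratio of mouse over pool. The labels call the pool untreated marrow in one field and cyclophosphamide-treated in another, which was not settled here and which cancels in differences between groups.

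B cells are made in the bone marrow from precursors that divide rapidly, and cyclophosphamide kills dividing cells. Newly made B cells leave the marrow for the spleen and lymph nodes, mature B cells recirculate back into it, and long-lived plasma cells reside there. The 5 genes cover several steps of this path. Ms4a1 encodes CD20, a membrane protein carried by B cells but lost in plasma cells. Cd22 encodes a sialic acid-binding receptor that dampens signals from the B cell antigen receptor. Ly6d encodes a small lipid-anchored surface protein that appears when lymphoid progenitors commit to the B lineage and is kept on B cells; plasmacytoid dendritic cells also carry it. Fcmr encodes the receptor for the constant part of IgM. Mzb1 encodes an endoplasmic reticulum protein that aids the assembly and secretion of IgM and is abundant in plasma cells and in marginal zone B cells.

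Promoter sequence is printed for Cd22 and Fcmr, 2 of the 5 genes. It comes from RefSeq promoter windows of the mouse reference genome (build GRCm38.p6, which is not the DBA/2 strain). Windows on 1 chromosome were left out of the matching by choice, so a gene not printed may still have a window. Cd22 and Fcmr are 2 receptors of mature B cells that were both highest on day 1, as were Ms4a1 and Ly6d by their means. The 250 bases before the annotated start lie at chr7:30879029-30879278 on the minus strand for Cd22 and at chr1:130865527-130865776 on the plus strand for Fcmr, printed from 5′ to 3′ with motif matches in capitals.
Cd22: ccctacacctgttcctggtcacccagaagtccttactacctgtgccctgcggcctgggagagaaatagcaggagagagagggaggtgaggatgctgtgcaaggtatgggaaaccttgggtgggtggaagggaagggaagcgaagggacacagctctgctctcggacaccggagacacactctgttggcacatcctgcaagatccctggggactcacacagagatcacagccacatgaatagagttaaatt
Fcmr: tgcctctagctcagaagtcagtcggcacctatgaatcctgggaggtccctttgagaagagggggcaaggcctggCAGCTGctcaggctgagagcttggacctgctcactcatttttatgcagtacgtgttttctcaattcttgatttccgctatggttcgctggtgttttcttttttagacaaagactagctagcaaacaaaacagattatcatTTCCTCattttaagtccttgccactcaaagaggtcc
Motifs bound by B cell factors were searched on both strands, namely the octamer ATGCAAAT, the E-box CAGCTG and the PU.1 core GAGGAA. The Cd22 window held 0 of them, and the Fcmr window held 1 E-box and 1 PU.1 core, the latter on the opposite strand. Among 32851 windows of the same length, 1.6% held the octamer, 13.0% the E-box and 23.3% the PU.1 core. These matches describe letters only, and no binding was measured.

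The deposited values ran from -4.804 to 2.67 and were taken as log2 ratios. Between 4079 and 7977 probes had a value on an array, and the rest were blank. The number of mice measured in each group, at most 5, limits the precision. The 2 arrays of a mouse correlated at 0.683 to 0.957 over all probes. Values of the 5 genes were present on 45 of 50 gene and array combinations in controls and on 47, 44 and 44 of 50 on the later days. Ly6d was the most often blank, with a value on 7, 10, 8 and 5 of 10 arrays in that order of groups. Pooled over the groups, the repeat arrays of a mouse differed less than the mice of a group did, for each of the 5 genes. For Cd22 the pooled SD between arrays of a mouse was 0.095 and that between mice of a group 0.214. For Fcmr these SDs were 0.154 and 0.963. By group (control, day 1, day 2 and day 5), the SD between mice was 0.151, 0.066, 0.192 and 0.346 for Cd22. For Fcmr it was 0.2, 0.279, 0.166 and 1.889. The spread between mice was thus widest on day 5, and in some other groups no larger than that between arrays or close to it. In whole marrow, fewer B cells and less of an RNA in each B cell cannot be told apart.

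**Figure D1:**
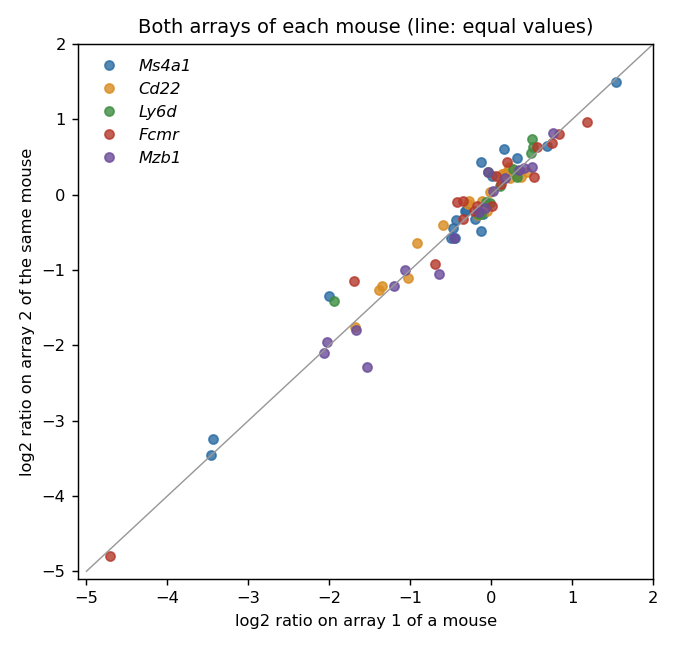
Log2 ratio on array 2 (vertical axis) against array 1 (horizontal axis) of the same mouse for the 5 genes, 1 point for each gene and mouse measured on both arrays; the line marks equal values. Points lie along the line down to the lowest pair, the Fcmr values of day 5 mouse 4 at -4.804 and -4.704. The low day 5 values measured on both arrays thus recurred on the repeat array. Day 5 values with no repeat are not shown, and for Ly6d only mouse 2 of that day had both arrays.

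Cd22 had the smallest SD between mice when pooled over groups, though on day 2 Ly6d, Ms4a1 and Fcmr had smaller ones. The control mice had log2 ratios of -0.10, -0.18, -0.22, -0.50 and -0.20 (mice 1 to 5). On day 1 they were 0.37, 0.22, 0.30, 0.20 and 0.31, and on day 2 they were 0.30, 0.29, 0.23, 0.01 and -0.14. On day 5 all had dropped, to -1.07, -1.72, -0.78, -1.32 and -1.28. Every day 1 mouse was above every control and every day 5 mouse below every mouse of the other groups. Of the day 2 mice, 1 lay within the control range. How many of all genes tested separated groups in this way was not counted, for Cd22 or for the genes described next. The group means ordered day 1 (0.28 ± 0.066), day 2 (0.14 ± 0.192), control (-0.24 ± 0.151) and day 5 (-1.24 ± 0.346; SD, n = 5 each). Day 1 and day 2, neighbours in this order, differed by -0.14 ± 0.132 (SE), which did not pass the test.

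Ms4a1 began close to the pool. Control values were -0.28, -0.27, 0.13, -0.12 and -0.26. Day 1 values were 0.16, 0.67, 0.40, 1.52 and 0.38, and day 2 values -0.39, -0.18, -0.46, -0.54 and -0.30. Day 1 mice all lay above the controls, mouse 4 furthest, and day 2 mice overlapped the controls. On day 5 the mice separated widely, at -3.34, -0.74, -3.46, -0.51 and -1.68, all below every control. The day 5 mean was -1.95 ± 1.40 (SD, n = 5), and 3 single-array values of mice 1 and 3 were among the 14 lowest of the whole table.

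Fcmr had control values of -0.22, -0.17, 0.15, 0.05 and -0.33. Day 1 values were 0.82, 0.31, 0.72, 1.07 and 0.60, all above the controls, and day 2 values were 0.03, -0.07, 0.11, 0.13 and 0.38. On day 5 they were -0.81, -1.42, -0.26, -4.75 and -0.21. Mice 3 and 5 of day 5 lay within the control range, and mouse 4 held the 2 lowest of the 236200 values in the table, 1 on each of its arrays. That mouse had the highest Ms4a1 value of its group, so the lowest mice for these B cell genes were not the same animals.

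Ly6d was measured in 4 control mice at 0.31, 0.28, 0.43 and -0.21 (mice 1, 2, 3 and 5). All day 1 mice had a value, between 0.11 and 0.62 with a median of 0.52, and overlapped the controls. Day 2 mice lay between -0.32 and -0.02, with a median of -0.08. The 4 day 5 mice with a value were at -1.68, -0.87, -0.61 and -0.42 (mice 2 to 5), below every mouse of the other groups. Only mouse 2 of these had a value on both arrays.

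Mzb1, abundant in plasma cells and in marginal zone B cells, took another course. Control values were 0.34, 0.43, 0.79, 0.38 and 0.19. On day 1 the 4 measured mice were at 0.15, 0.04, -0.12 and -0.19, and on day 2 at -1.21, -0.52, -1.03 and -0.85, with no overlap between control, day 1 and day 2. On day 5 the values were -1.92, -1.99, -2.08, -1.74 and 0.13. Mice 1 to 4 were lower than any other mouse of the study, and mouse 5 lay between the day 1 mice, still below every control.

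**Figure D2:**
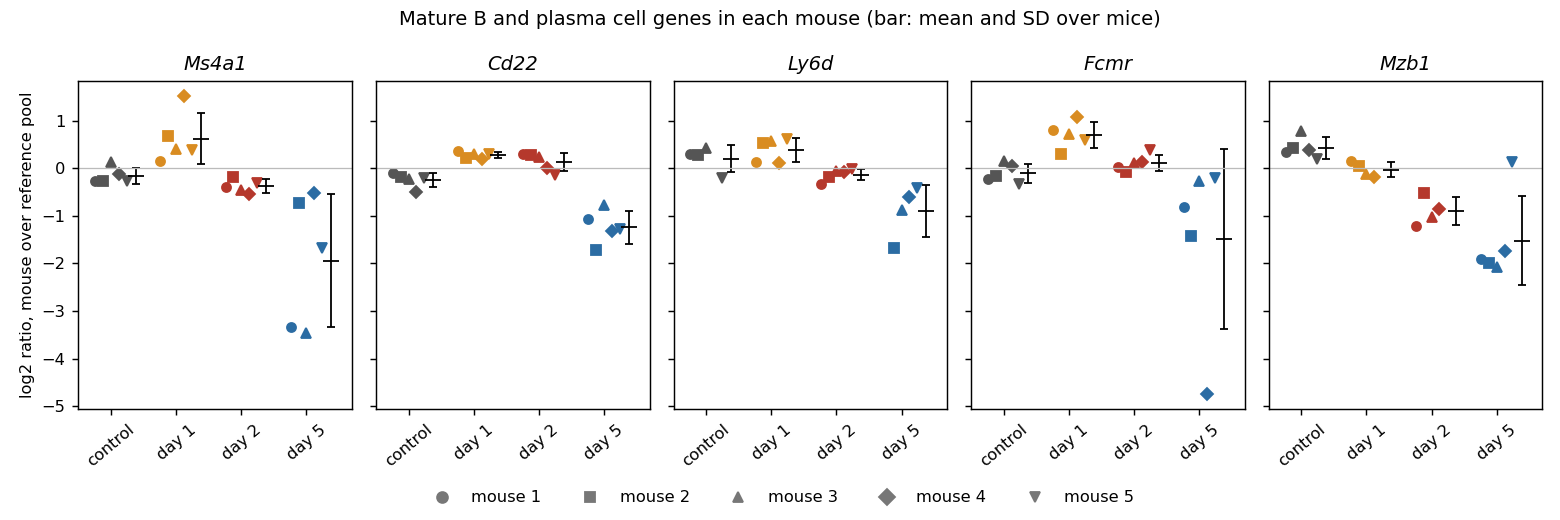
Log2 ratio of mouse over reference pool (vertical axis) for each gene, with 1 symbol for each mouse (mean of its arrays) by group and a bar for the mean and SD over mice. Ms4a1, Cd22 and Fcmr were highest on day 1, Mzb1 was lower in each later group, and on day 5 single mice stand apart for Fcmr (mouse 4, -4.75) and Mzb1 (mouse 5, 0.13).

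A model over all 20 mice tested 5297 genes and unnamed probes, and adjusted p-values (limma, Benjamini-Hochberg) are over all of them. Differences are log2 with their SE, and "rose" and "fell" are used for adjusted p under 0.05. All 5 genes differed among the groups in the model's F test, with adjusted p from 7.14e-08 for Cd22 to 0.00996 for Fcmr; 1626 of the genes tested passed it.

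One day after the drug, Cd22 rose 1.43-fold (0.52 ± 0.132, adjusted p = 0.00928), and no other gene of the 5 passed. That is 1 of 5 higher and 0 lower, against 10.7% higher and 8.38% lower of all genes tested. The differences of Ms4a1 (0.79 ± 0.399, adjusted p = 0.174) and Fcmr (0.81 ± 0.505, adjusted p = 0.281) were larger than that of Cd22 but had wide intervals, -0.04 to 1.61 and -0.24 to 1.85 at 95% confidence. The model shares 1 spread over all groups, and for these genes that spread came largely from day 5. With control and day 1 mice alone, the adjusted p was 0.0165 for Ms4a1 and 0.00245 for Fcmr, and without day 5 mouse 4 that of Fcmr was 0.00343. In exact two-sided permutation tests over the mice, with p not adjusted over genes, Ms4a1, Cd22 and Fcmr each gave 0.00794. This is the smallest p that 5 against 5 mice allow, and it says only that the groups did not overlap. How many of all genes tested did so was not counted. Mzb1 was at -0.46 ± 0.298 (adjusted p = 0.303), with all 4 measured day 1 mice below the 5 controls (exact permutation p = 0.0159). Its adjusted p was 0.026 without day 5 mouse 5 and 0.0353 with the control and day 1 mice alone. Ly6d was at 0.19 ± 0.191 (adjusted p = 0.524, interval -0.21 to 0.59).

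After 2 days, Mzb1 fell 2.51-fold (-1.33 ± 0.298, adjusted p = 0.00399) and Cd22 was still higher than in controls (0.38 ± 0.132, adjusted p = 0.0465). Thus 1 of 5 was higher and 1 of 5 lower, against 9.61% higher and 9.61% lower of all genes tested. The Cd22 call was narrow. It was lost when any 1 control mouse, day 1 mouse 3 or 5, or day 2 mouse 1, 2 or 3 was left out, with values of 0.31 to 0.45 and adjusted p of up to 0.12 over all mice left out in turn. Ms4a1 (-0.21 ± 0.399, adjusted p = 0.768), Ly6d (-0.34 ± 0.191, adjusted p = 0.234) and Fcmr (0.22 ± 0.505, adjusted p = 0.815) did not pass.

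After 5 days, 4 of the 5 genes fell, against 1.72% of all genes tested. Mzb1 fell 3.85-fold (-1.95 ± 0.281, adjusted p = 0.000177), Ms4a1 3.45-fold (-1.79 ± 0.399, adjusted p = 0.0116), Ly6d 2.14-fold (-1.10 ± 0.202, adjusted p = 0.00255) and Cd22 1.99-fold (-0.99 ± 0.132, adjusted p = 5.17e-05). The median difference of the 5 genes was -1.39, and that of all genes tested 0.01. Among 3926 genes with a symbol, ordered from the most negative difference, Mzb1 was number 3, Ms4a1 number 5, Fcmr number 9, Ly6d number 18 and Cd22 number 21. The 5 genes were chosen with earlier results of these data known, so this share and these ranks are descriptive. Fcmr was at -1.39 ± 0.505 (adjusted p = 0.2), and at -0.57 (adjusted p = 0.159) without mouse 4. The Ms4a1 difference was -0.81 (adjusted p = 0.0802) when values below -3, those of mice 1 and 3, were left out, and with control and day 5 mice alone its adjusted p was 0.0623.

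**Figure D3:**
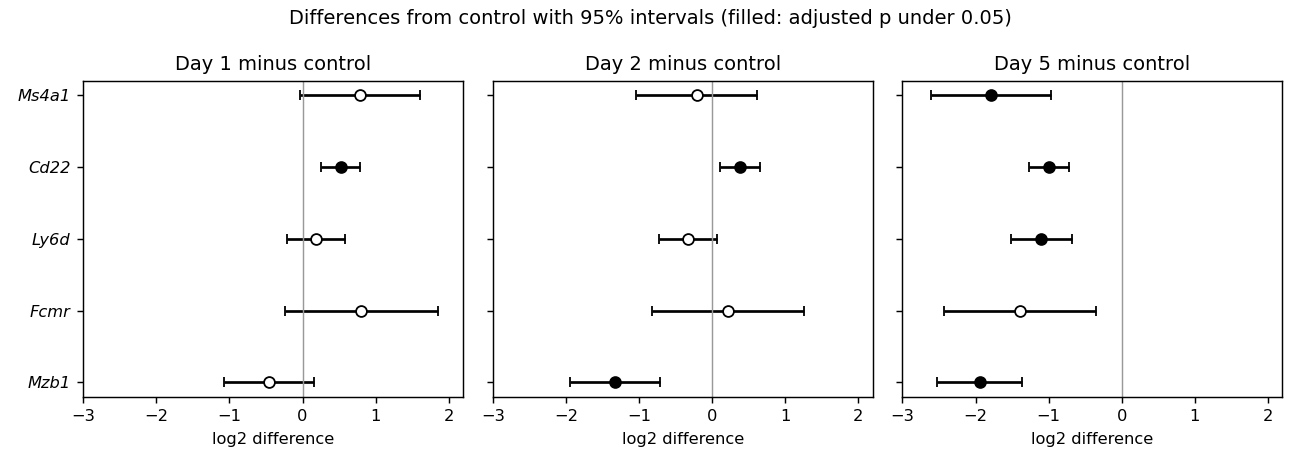
Log2 difference from control (horizontal axis) on days 1, 2 and 5 for the 5 genes, with 95% intervals of the limma model; filled points have adjusted p under 0.05. Cd22 passed on all days, above 0 on days 1 and 2 and below 0 on day 5, and Mzb1 passed on days 2 and 5, below 0.

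From day 1 to day 2 none of the 5 genes passed the limma test, against 2.10% of all genes tested in either direction. The differences and unadjusted limma p-values were -0.997 and 0.0197 for Ms4a1, -0.53 and 0.00816 for Ly6d, and -0.87 and 0.0111 for Mzb1. For Fcmr they were -0.59 and 0.256, and for Cd22 -0.14 and 0.295. The share of all genes at an unadjusted threshold was not counted. The adjusted p of Mzb1 was 0.172, and 0.00218 without day 5 mouse 5; that of Ly6d was 0.145, and 0.0437 without day 5 mouse 2. From day 2 to day 5, 4 of 5 fell, against 10.5% of all genes tested: Ms4a1 by 1.57, Fcmr by 1.61, Cd22 by 1.37 and Ly6d by 0.76 on the log2 scale, with adjusted p of 0.00624, 0.0247, 1.7e-07 and 0.00635. Without mouse 4 of day 5, Fcmr fell by 0.79 (adjusted p = 0.0053). Its call was lost with the 2 groups alone (adjusted p = 0.091), with array 2 alone (0.066), with both arrays required (0.059) and in a robust fit (0.0557). With values below -3 left out, the Ms4a1 difference was -0.60 (adjusted p = 0.0817). Without day 5 mouse 2, Ly6d fell by 0.50 (adjusted p = 0.0294). Mzb1, already low on day 2, was at -0.62 ± 0.298 (adjusted p = 0.154), and at -1.03 (adjusted p = 5.2e-05) without day 5 mouse 5. From day 1 to day 5 all 5 fell, against 13.1% of all genes tested, from -1.29 for Ly6d to -2.57 for Ms4a1. Fcmr fell by 2.19, and by 1.38 without day 5 mouse 4. All 5 tested macrophage genes also fell from day 1 to day 5 and from day 2 to day 5, so such falls were not particular to B cell genes. None of the tested B cell precursor or T and NK cell genes fell in these comparisons. Some genes of plasmacytoid dendritic cells, neutrophils and erythroid cells did. These comparisons share mice with those against control.

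Cd22 and Mzb1 parted after the drug. This pair was chosen after the values had been seen, so its difference is given with no test. Within a mouse, Cd22 minus Mzb1 was -1.01 to -0.40 in the controls, then 0.18 to 0.42 a day after the drug and 0.81 to 1.5 on the day after that, with no overlap between these groups. On day 5 it spread from -1.42 to 1.30, mouse 5 being the lowest. Of 12 genes of B cell precursors 3 were tested, and of these Vpreb1 and Vpreb3, the surrogate light chain genes of pre-B cells, fell on each day. Vpreb1 was at -1.15, -1.05 and -1.11 and Vpreb3 at -0.97, -1.51 and -1.72 on days 1, 2 and 5 (adjusted p from 0.000486 to 0.018). Cd93 did not pass on any day. Of all genes tested, 8.38%, 9.61% and 1.72% were lower on days 1, 2 and 5.

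**Figure D4:**
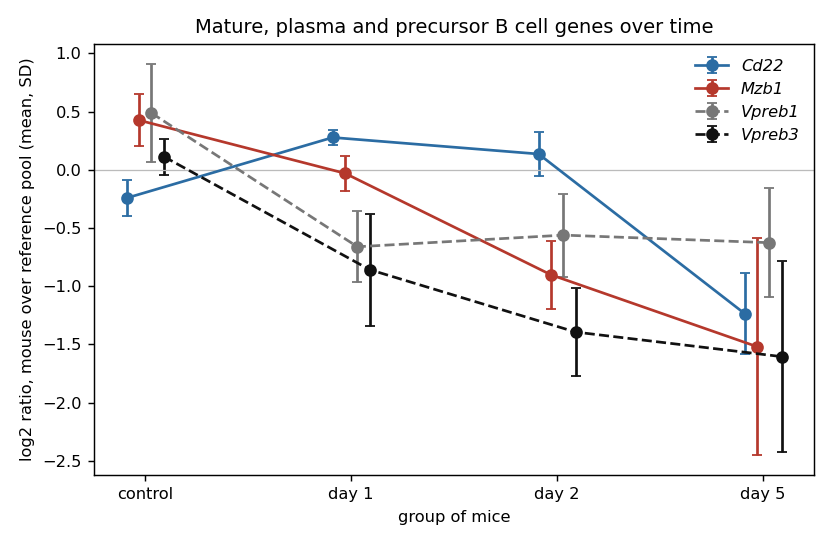
Mean log2 ratio of mouse over reference pool (vertical axis; bars are SD over mice) of Cd22, Mzb1, Vpreb1 and Vpreb3 in the 4 groups (horizontal axis, not to scale in time). Cd22 was above its control mean of -0.24 on days 1 and 2, while Vpreb1 and Vpreb3 were below theirs from day 1, and all 4 were below control on day 5.

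Other genes of mature B cells and plasma cells were also tested. Against control, 19.1%, 19.2% and 2.62% of all genes tested passed in either direction on days 1, 2 and 5, and 1.72% were lower on day 5. Of 33 further mature B cell genes 22 were on the array and 8 could be tested; Cd79a, Cd79b and Pax5, which define the lineage, had no value in any mouse. None of the 8 passed on day 1, where Blnk had the smallest p (-0.52 ± 0.250, adjusted p = 0.157), or on day 2, where Pou2af1 did (-1.02 ± 0.392, adjusted p = 0.0721). On day 5 Syk, a kinase downstream of the B cell receptor that myeloid cells also use, fell (-0.55 ± 0.113, adjusted p = 0.0068). Cd72, an inhibitory B cell receptor, was at -1.13 ± 0.321 (adjusted p = 0.0594), and Pou2af1, a B cell coactivator, at -1.34 ± 0.392 (adjusted p = 0.0733). The median of the 8 on day 5 was -0.41. From day 1 to day 5, 3 of the 8 fell: Cd72 (-1.41, adjusted p = 0.00242), Syk (-0.59, adjusted p = 0.00147) and Ptpn6 (-0.42, adjusted p = 0.0272), a phosphatase that also acts in myeloid cells. From day 2 to day 5, 2 of the 8 fell, Cd72 (-1.03, adjusted p = 0.0244) and Syk (-0.34, adjusted p = 0.0281). Of all genes tested, 13.1% and 10.5% were lower in these comparisons. Among 20 further plasma cell genes 6 were tested. Sec11c, a signal peptidase subunit, fell on day 1 (-0.75 ± 0.176, adjusted p = 0.00558) and day 2 (-0.72, adjusted p = 0.00652). Prdm1, which drives plasma cell differentiation and acts in other cells too, rose on day 1 (0.49 ± 0.144, adjusted p = 0.0205). None of the 6 passed on day 5, which is close to the 2.62% of all genes tested that passed that day in either direction. The day 5 differences of the 6 lay between -0.17 for Tnfrsf13b, a receptor for B cell survival factors, and 0.21 for Sec11c. Sdc1, which encodes the plasma cell surface marker CD138, was at -0.01 ± 0.202 (adjusted p = 0.995, interval -0.43 to 0.41). Derl3, of the pathway that removes misfolded proteins from the endoplasmic reticulum, was at -0.05 ± 0.101 (adjusted p = 0.945, interval -0.26 to 0.16), against -1.95 for Mzb1.

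Some markers of other marrow cells also passed in the same groups. Of 3 tested genes of plasmacytoid dendritic cells, which share Ly6d, Ccr9 rose on day 1 (0.74 ± 0.128, adjusted p = 0.000735) and day 2 (0.77, adjusted p = 0.00031), and none passed on day 5, where Tcf4 had the smallest p (-0.33 ± 0.166, adjusted p = 0.481). Of the 2 tested T and NK cell genes, Cd8b1 and Nkg7, none passed against control, the smallest adjusted p being 0.149 for Cd8b1 on day 2. On day 1, 2 of 5 macrophage genes, 1 of 6 neutrophil genes and 1 of 7 erythroid genes rose, against 10.7% of all genes tested. All 5 tested macrophage genes rose on day 2, and 4 of 6 neutrophil genes and 3 of 7 erythroid genes fell. Of all genes tested, 9.61% were higher and 9.61% lower that day. On day 5 only 2 neutrophil genes, among these 3 lists, passed, both lower, against 1.72% of all genes tested. The mean of the 4 macrophage genes measured in all mice was -0.44 to 0.20 in controls, 0.30 to 0.80 on day 1, 0.80 to 1.27 on day 2 and -0.58 to -0.16 on day 5. That of 4 neutrophil genes was -0.17 to 0.10 in controls and -1.64 to -1.07 on day 2. The part of such shifts in the values of the 5 genes was not tested.

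The genes most like each of the 5 were found by Pearson's r over mice, among genes with a symbol measured with it in at least 15 mice. These r describe courses over mice that share groups and carry no test. Cd22 was closest to Il1b (0.924), Oasl2 (0.908) and Slfn4 (0.900), each over 20 mice. Mzb1 was closest to Vpreb3 (0.895 over 18 mice), Tap1 (0.893 over 16) and Atp1b1 (0.849 over 18). Ms4a1 was closest to Ccl6 (0.930 over 16), Trp53inp1 (0.848 over 16) and P2ry14 (0.836 over 15). Ly6d was closest to Syk (0.879 over 15), Cyp4f18 (0.817 over 18) and Mzb1 (0.797 over 16). Fcmr was closest to Hmgn1 (0.833), Tulp4 (0.826) and Tspan13 (0.824) over 20 mice, and without day 5 mouse 4 the r of Hmgn1 was 0.598, of Tulp4 0.821 and of Tspan13 0.559. Several of these r were lower with the day 5 mice left out. Ly6d then gave 0.211 with Cyp4f18 and 0.551 with Syk, Ms4a1 gave 0.446 with P2ry14, and Fcmr gave 0.289 with Hmgn1 and 0.225 with Tspan13. Mzb1 with Vpreb3 gave 0.910 over 13 mice, and Cd22 with Il1b 0.783 over 15. Among the 5 genes themselves, over all mice measured for both, r was 0.780 for Cd22 with Ly6d, 0.685 for Cd22 with Fcmr and 0.298 for Ms4a1 with Fcmr.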

How the data were processed

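Bone marrow RNA of 20 mice was measured on 40 arrays of 2 colours. Per the labels' protocols, total RNA came from a Qiagen RNeasy Midi extraction, and Ambion's amino allyl method gave the amplified RNA. Each probe has 1 deposited value or a blank on each array, read as a log2 ratio of Cy5 (mouse) over Cy3 (pool) after the labelled dyes. The log base, scanner, background correction, normalization and rule behind blanks were not given in the sources used here. Array medians lay within 0.0151 of 0, so the arrays look centred. Were the logs natural, each fold would be larger.

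The 2 arrays of a mouse were averaged, then probes sharing a symbol. Genes with at least 3 mice per group (5297, of which 3926 had a symbol) were fitted in limma 3.58.1 (R 4.3.3) with 1 mean per group over all 20 mice and no batch term. A check on simulated data came first. Its noise had the same spread in every group of a gene, so it could not test the shared spread against the unequal ones seen here. Blanks were not filled, and a mean uses the mice measured. Of 13443 probes, 10032 had 1 symbol in the platform annotation. The 5 genes and the cell type lists were chosen with earlier results of these data known. Named beyond the 5 are, for each list, up to 6 called genes (or that with the smallest p; counts alone for macrophage, neutrophil and erythroid lists) and the 3 genes most like each of the 5; Cd72, Pou2af1 on day 5, Cd93, Sdc1, Derl3, Tnfrsf13b, the blank B lineage genes and the pair Cd22 and Mzb1 were named after their values were seen. Alternatives covered filters, arrays, scaling, weights, blocks, other fits and leaving out each mouse.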

Additional observations from a re-analysis of the deposited data

Results flagged for a closer look

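Within groups of 4 or 5 mice, a sample standing apart by Dixon's test was looked for in 62 groups of values of 16 genes, and 6 were found; chance gives about 1 in 20. On day 5, Fcmr in mouse 4 was at -4.754, with the next mouse at -1.42. On the same day Mzb1 in mouse 5 was at 0.134, with the next at -1.735. That mouse also had Vpreb3 at -0.282, against -1.447 to -2.372 in the other day 5 mice, and a value for 7710 probes, against 5045 to 5613, while its Cd22 (-1.283) lay within the range of its group. The part of probe number in these values was not tested. The other samples standing apart were Pou2af1 in control mouse 2 (-0.382, next -0.171), Prdm1 in control mouse 3 (-0.521, next -0.188), Vpreb3 in day 1 mouse 1 (-0.019, next -0.993) and Nkg7 in day 5 mouse 1 (0.325, next 0.891).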

How the results depend on the processing

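Of 1026 values of the 5 genes under alternatives, 981 kept their direction and side of the threshold. Of the rest, 21 lost the call, 24 gained it (8 of them by an exact p with no adjustment) and 0 reversed. Many settings left the difference itself as it was, among them leaving out a mouse of neither group compared. Such settings could not reverse a difference, so these counts do not measure how firm the directions are. With only the 2 groups compared, calls were gained on day 1 for Ms4a1 (0.79, adjusted p = 0.0165), Fcmr (0.81, 0.00245) and Mzb1 (-0.46, 0.0353), and from day 1 to 2 for Ms4a1 (-0.997, 0.0288) and Mzb1 (-0.87, 0.0228); they were lost for Ms4a1 on day 5 (-1.79, 0.0623) and Fcmr from day 2 to 5 (-1.61, 0.091). Exact permutation tests on the same values, whose p was not adjusted over genes, were under 0.05 where the adjusted p was not for Ms4a1, Fcmr and Mzb1 on day 1, Fcmr on day 5 (-1.39, p = 0.0476), and Ms4a1, Ly6d (-0.53), Fcmr (-0.59) and Mzb1 from day 1 to 2. Leaving out values below -3, an alternative chosen after seeing the data, gained Ms4a1 (0.79, adjusted p = 0.0129) and Fcmr (0.81, 0.00409) on day 1 and Ms4a1 from day 1 to 2 (-0.997, 0.0101), and lost Ms4a1 on day 5 (-0.81, 0.0802) and from day 2 to 5 (-0.60, 0.0817). The day 2 call of Cd22 was lost with 2 mice per group required (0.38, 0.0521), array 2 alone (0.33, 0.124), scaled arrays (0.37, 0.0784) and array weights (0.26, 0.15). Array weights gained Ly6d from day 1 to 2 (-0.64, 0.0485) and Mzb1 from day 2 to 5 (-0.80, 0.0493). Fcmr was called on day 5 with arrays kept apart and the mouse as a block (-1.39, 0.0373), and lost from day 2 to 5 with array 2 alone (-1.49, 0.066), both arrays required (-1.64, 0.059) and a robust fit (-1.61, 0.0557). The causes were not tested.

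Leaving out each mouse in turn, the ranges with a changed call were 0.71 to 0.90 for Fcmr and -0.52 to -0.36 for Mzb1 on day 1, 0.31 to 0.45 for Cd22 on day 2, -0.60 to -0.47 for Ly6d and -1.0 to -0.77 for Mzb1 from day 1 to 2, and -1.03 to -0.48 for Mzb1 from day 2 to 5. Deviations of same-numbered mice had a mean r of 0.029 over 30 pairs (-0.391 to 0.33), against -0.007 over 120 others (-0.445 to 0.409). The labels do not say what the numbers mark, and such means cannot show whether the mice were paired. With the replicate number as a block, no call of the 5 genes changed, with Mzb1 at -0.28 on day 1 and -1.15 on day 2. In that fit 986, 979 and 124 genes passed on days 1, 2 and 5, against 1012, 1018 and 139. Those counts moved by over 1.5 times with array weights (1891 on day 1, 366 on day 5, and 278 from day 1 to 2 against 111), scaled arrays (223 on day 5, 69 from day 1 to 2), arrays kept apart (210 and 241), the 2 groups alone (65 from day 1 to 2), and without day 1 mouse 2 (641) or 3 (611), day 2 mouse 1 (592) or day 5 mouse 4 (167 from day 1 to 2). Ly6d and Mzb1 could not be tested with all 5 mice required, nor Ly6d with array 1 alone or both arrays required. Blanks and the number of mice limit the precision.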
